A study of Homo sapiens with 4 samples.

Results

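DNA replication needs a set of proteins that mark origins, load and fire the helicase, and then copy both strands, and the nucleosomes at the promoters of 39 genes encoding them were examined in neuroblastoma cells. The genes were listed by function, with earlier results of these data known, and all 39 were found among the 20136 protein-coding genes with a name of their own. They comprised 9 licensing genes, 12 helicase genes, 6 genes of the sliding clamp and its loader, 8 polymerase and primase genes, 3 genes of the single-strand binding complex and 1 topoisomerase gene. Nucleosomes had been mapped by MNase-seq, in which micrococcal nuclease digests the linker DNA and the protected fragments are sequenced, in an established line, BE(2)C, derived from a human neuroblastoma and carrying an amplified MYCN gene. All 4 libraries came from this line, which the labels call wild type. A pair of libraries (control replicates 1 and 2) came from cells given a non-targeting siRNA, and a pair (MYCN knockdown replicates 1 and 2) from cells given an siRNA against MYCN, collected the day after transfection with Lipofectamine. Where 2 values are given for a group, the first is replicate 1 and the other replicate 2. The labels give 80 nM siRNA, and the methods state a lower concentration. The study's methods call the replicates biological, but neither they nor the labels say whether these were separate cultures, so p-values measure only the spread between these libraries. MNase-seq gave no check of the knockdown itself.

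In G1 the origin recognition complex, ORC, binds DNA and, with CDC6 and CDT1, loads the ring-shaped MCM2-7 helicase, a step called licensing that geminin (GMNN) blocks once replication has begun. CDC45 and the GINS complex then join MCM2-7 to form the active helicase, and the polymerases, their clamp and the single-strand binding complex RPA follow at the fork. Many of these genes are transcribed before S phase under E2F control, and many are targets of MYC family factors, which bind the E-box CACGTG. An active promoter usually has a nucleosome-depleted stretch at the transcription start site (TSS), bounded downstream by a well placed nucleosome called +1.

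The files list called nucleosomes, all of the same core length, with a dyad (its midpoint), a read count and a fuzziness, which is the SD in bp of the read midpoints around the dyad. The lists held 10527010 and 12120711 nucleosomes in the controls, and 10677252 and 12178724 on knockdown. Their summed reads ran from 147370973 to 242544884, and the median nucleosome held 12 reads in each replicate 1 library and 18 in each replicate 2 library. Replicate 2 was thus deeper in both groups, while depth was alike between groups at the same number. The promoter of MYCN held 89.5 to 118 times the reads of the median promoter in each of the 4 libraries. No nucleosome with fewer than 6 reads was listed, so a promoter without a listed nucleosome is one where none reached that depth.

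The sequences upstream of 6 of the genes are shown because they hold an E-box (MCM2, MCM7, ORC4 and RPA1) or lie in the longest nucleosome-free stretches of the set (MCM3 and MCM6). Each run is read 5′ to 3′ toward the TSS from the GRCh37 genome, and capitals mark the E-box CACGTG and the E2F letters TTTCCCGC, TTTGGCGC, TTTCGCGC and TTTGCCGC or their reverse complements. The runs lie on the + strand at chr3:127317111-127317252 for MCM2 and chr17:1733197-1733264 for RPA1, and on the - strand at chr7:99699021-99699050 for MCM7, chr2:148778331-148778506 for ORC4, chr6:52149680-52149740 for MCM3 and chr2:136634014-136634213 for MCM6. All but the run of MCM7 lie outside annotated untranslated regions, and for MCM7 only the 30 bases before the TSS are shown.
MCM2: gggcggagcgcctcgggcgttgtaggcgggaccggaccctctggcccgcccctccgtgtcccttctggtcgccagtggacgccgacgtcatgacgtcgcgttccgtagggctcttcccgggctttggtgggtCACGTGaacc
MCM7: ccggtCACGTGgggggcgacgTTTCGCGCc
ORC4: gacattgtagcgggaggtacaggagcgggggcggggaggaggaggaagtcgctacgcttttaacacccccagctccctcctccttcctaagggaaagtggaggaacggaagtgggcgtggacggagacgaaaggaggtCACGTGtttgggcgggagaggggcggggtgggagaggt
RPA1: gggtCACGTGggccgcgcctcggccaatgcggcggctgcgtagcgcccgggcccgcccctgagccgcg
MCM3: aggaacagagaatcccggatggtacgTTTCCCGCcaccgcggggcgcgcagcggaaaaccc
MCM6: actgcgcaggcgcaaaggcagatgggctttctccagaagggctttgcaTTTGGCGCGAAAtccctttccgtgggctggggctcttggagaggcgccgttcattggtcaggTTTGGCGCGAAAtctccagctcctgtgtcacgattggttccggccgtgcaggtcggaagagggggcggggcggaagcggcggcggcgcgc

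Both strands were searched in a window that began 200 bp before the TSS and ended 50 bp after it. E2F letters were found in 17 of 39 members (43.6%) and in 737 of 20136 promoters (3.66%). MCM6, a subunit of the helicase ring, held TTTGGCGC 152 and 90 bp upstream, each overlapping a match to GCGCGAAA on the other strand. MCM7, another subunit of the ring, held an E-box 25 bp and an E2F match 9 bp upstream of its TSS. CACGTG was found in 5 members (12.8%) against 7.84% of all promoters. In MCM2 it lay 11 bp, in ORC4 62 bp and in RPA1 98 bp upstream, whereas in GMNN it lay downstream of the TSS. CCAAT was found in 23 members (59.0%, all promoters 32.2%) and the GC box GGGCGG in 28 (71.8%, all promoters 58.7%). The letters TTTGAA, the core of the cell cycle element CHR, were found only in POLD1 and TOP2A, which is 5.13% of members against 9.17% of all promoters. These matches are letters in a window and show no binding.

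The start sites of the set were open. Summed over the 39 genes, reads in that window stood at 0.24 and 0.224 of the level in the rest of the surrounding 2 kb in the controls, and at 0.255 and 0.207 on knockdown. The same ratio over all promoters was 0.679, 0.65, 0.654 and 0.652. The profile of the members fell to 0 in both replicate 2 libraries and to 0.0534 and 0.0546 of the mean in the replicate 1 libraries, while over all promoters the lowest point was between 0.551 and 0.567. The +1 peak of the members stood 125 to 135 bp downstream of the TSS, at 3.09 to 3.87 times the mean of the span, against 1.87 to 1.94 over all promoters. The next peak, at 315 to 325 bp, reached 1.78 to 2.54, against 1.31 to 1.41. The deeper trough and higher +1 peak were present in each of the 4 libraries, and the control and knockdown ratios overlapped.

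**Figure D1:**
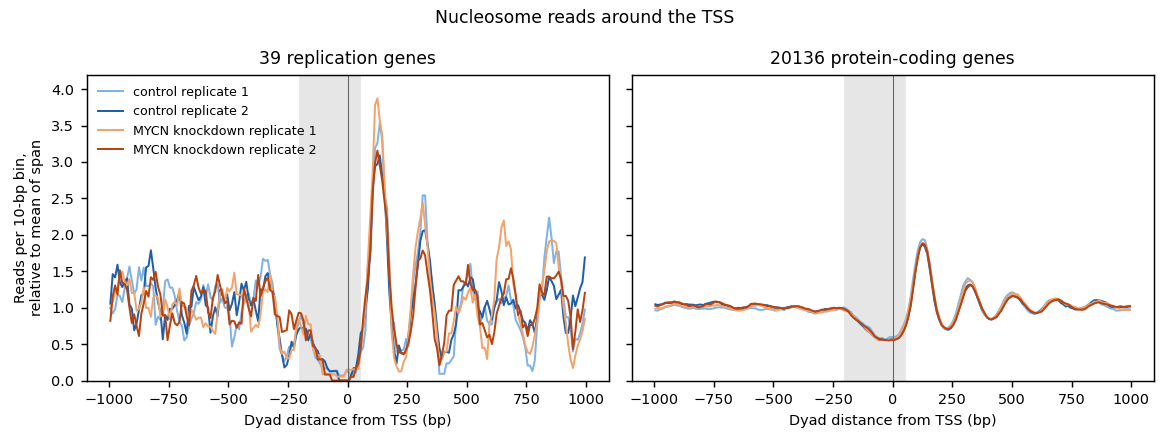
Reads of called nucleosomes in 10-bp bins (smoothed) by distance of the dyad from the TSS in bp, relative to the mean of the span, for the 39 replication genes (left) and all 20136 genes (right), with 1 line for each library and the window from -200 to +50 bp in grey. In the 4 libraries the members fell to at most 0.0546 near the TSS and rose to 3.09 or more at +1, whereas all genes stayed above 0.55 and below 2.

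A window was called empty in a library when no listed nucleosome had at least 80% of its length inside it. Of the 39 members, 33 and 32 were empty in the controls, and 34 and 36 on knockdown, while over the 20057 promoters with reads nearby the shares were 58.4%, 52.6%, 60.2% and 52.1%. The window was empty in all 4 libraries in 29 members (74.4%) and in 6475 of all promoters (32.3%). It held a nucleosome in all 4 libraries in 3 members (7.69%) and in 4002 of all promoters. With the stricter rule that no dyad may lie in the window, 22 members (56.4%) were empty in all 4, against 19.1% of all promoters. When the most upstream annotated TSS of each gene replaced the canonical one, 18 members (46.2%) were empty in all 4 libraries, against 27.2%. GC content of the window had a median of 65.34% in the members and 64.54% over all promoters.

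The 3 genes filled in all 4 libraries were GINS1, a GINS subunit, RFC1, the large subunit of the clamp loader, and RPA3, the small subunit of RPA. The nucleosomes within the window of GINS1 held 7 and 28 reads in the controls and 12 and 22 on knockdown. At RFC1 they held 17 and 20 reads in the controls and 21 and 23 on knockdown, and at RPA3 9 and 22, and 11 and 18. The filled windows of these 3 genes were thus present in both groups. RFC4 and POLE2 counted as empty in all 4 libraries, yet a nucleosome that crossed the window's edge had its dyad inside in each. At RFC4 such dyads held 23 and 30 reads in the controls and 25 and 35 on knockdown, and at POLE2 16 and 15, and 18 and 23. The canonical window of RPA3 had a GC content of 35.5%, the lowest of the members.

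No member was empty in both controls and filled in both knockdown libraries, a pattern found in 2.21% of all promoters. PRIM2, the large subunit of primase, was the 1 member filled in both controls and empty in both knockdown libraries, and 2.41% of all promoters showed that pattern. In the controls PRIM2 had a nucleosome with its dyad at -111 and -117 bp, with 6 and 9 reads. On knockdown the nearest upstream dyads of PRIM2 were at -203 and -212 bp, with 7 and 19 reads, so they did not lie 80% within the window. The PRIM2 nucleosome in control replicate 1 was at the minimum of 6 reads.

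The other 6 members varied within a group. ORC5, an ORC subunit, was filled in both replicate 1 libraries (9 reads in the control, 7 on knockdown) and empty in both replicate 2 libraries. CDT1, MCM2 and POLE, the catalytic subunit of polymerase epsilon, were filled only in control replicate 2, by nucleosomes of 6, 9 and 7 reads. GINS2 was filled only in control replicate 1 (7 reads) and GINS3 only in MYCN knockdown replicate 1 (12 reads). The filled windows of these genes rested on nucleosomes of 12 reads or fewer, and no gene separated the groups. At GINS3, GINS2, MCM2 and POLE some empty libraries had a dyad inside, in a nucleosome that crossed the window's edge. At GINS3 it held 12 reads in control replicate 1 and 20 in MYCN knockdown replicate 2. At GINS2 it held 16 reads in control replicate 2 and 12 in MYCN knockdown replicate 1. In MYCN knockdown replicate 2 it held 8 reads at MCM2 and 7 at POLE. At ORC5 and CDT1 no empty library had a dyad inside.

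By role, the window was empty in all 4 libraries in 7 of 9 licensing genes, 8 of 12 helicase genes, 5 of 6 clamp and loader genes, 6 of 8 polymerase and primase genes, 2 of 3 RPA genes and in TOP2A, the topoisomerase that untangles replicated DNA. Each role with several genes was thus above the 32.3% of all promoters, with numbers too small to rank the roles.

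The nucleosome-free stretch was the longest gap between nucleosome edges that touched the window, and it need not span the TSS. Its median over members was 298 and 238 bp in the controls, and 303 and 273 bp on knockdown. Over all promoters the medians were 180, 152, 191 and 152 bp. The longest mean stretch was at MCM3, a subunit of the helicase ring, with 1097 and 454 bp in the controls and 450 and 433 bp on knockdown. MCM6 followed with 981 and 423 bp in the controls and 520 and 402 bp on knockdown. ORC4, an ORC subunit, had 566 and 872 bp in the controls and 500 and 329 bp on knockdown. In each of these 3 genes 1 control library had a longer stretch than the other libraries, in promoters with few reads, and the mean stretch exceeded that of 98.02% (MCM3), 97.66% (MCM6) and 97.41% (ORC4) of all promoters. MCM3 had 54 and 173 promoter reads in the controls and 81 and 164 on knockdown.

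The shortest mean stretches belonged to the 3 genes with filled windows. RPA3 had 63 and 207 bp in the controls and 71 and 33 bp on knockdown. GINS1 had 109 and 76 bp in the controls and 138 and 74 bp on knockdown, and RFC1 had 138 and 97 bp in the controls and 142 and 138 bp on knockdown. The groups overlapped in each of these 3 genes. Of the E-box genes, MCM7 had 401 and 217 bp in the controls and 417 and 349 bp on knockdown. MCM2 had 293 and 150 bp, and 290 and 154 bp, and RPA1 had 165 and 173 bp, and 180 and 159 bp. At MCM2 the stretch followed the replicate number and not the group.

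**Figure D2:**
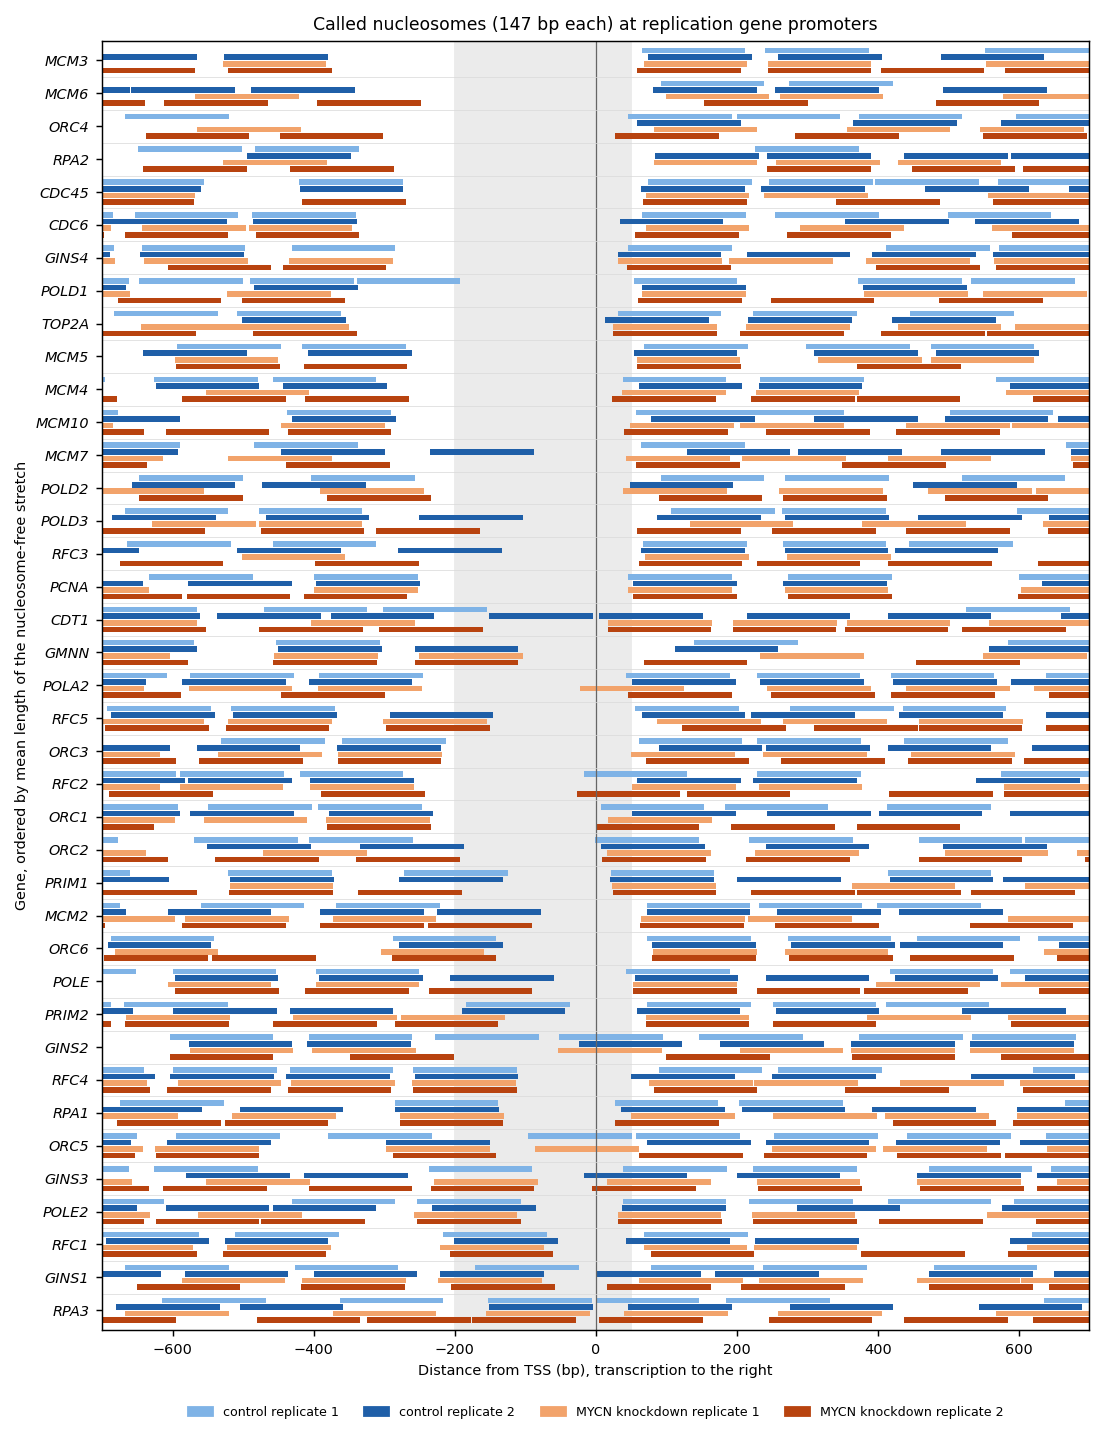
Called nucleosomes (bars, drawn to scale) by distance from the TSS in bp at each of the 39 genes, ordered by mean nucleosome-free stretch, with 1 row per library within each gene and the window from -200 to +50 bp in grey. MCM3, MCM6 and ORC4 at the top have no nucleosome lying 80% within the window in any library, and GINS1, RFC1 and RPA3 in the lowest rows have one in all 4.

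Of the members, 9 had a TSS of another protein-coding gene within 1 kb upstream on the opposite strand (23.1%, against 9.36% of all genes). They were ORC1 (PRPF38A, 179 bp away), ORC3 (RARS2, 148 bp), ORC4 (MBD5, 354 bp), ORC6 (VPS35, 481 bp), MCM4 (PRKDC, 805 bp), MCM7 (AP4M1, 246 bp), CDC45 (UFD1, 727 bp), POLE (PXMP2, 245 bp) and RPA1 (SMYD4, 103 bp). At these promoters the upstream nucleosomes belong to both genes, and 8 of the 9 (88.9%) were empty in all 4 libraries, against 60.0% of the 1883 such promoters over all genes.

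The +1 nucleosome, here the first dyad 1 to 300 bp downstream of the TSS, was found in all 4 libraries in 35 members (89.7%, all promoters 86.9%). It was missing for CDT1 in control replicate 1, for ORC5 and GMNN in MYCN knockdown replicate 1 and for RPA2, the middle subunit of RPA, in MYCN knockdown replicate 2. Its median distance from the TSS was 130 and 128 bp in the controls and 125 and 129.5 bp on knockdown, against 122 or 123 bp over all promoters. The range of its position over the 4 libraries had a median of 37 bp in the members and 56 bp over all promoters, and it was at most 30 bp in 16 of 35 members (45.7%) and in 32.1% of all.

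PRIM1, the catalytic subunit of primase, had the least variable +1 dyad, at 94 and 93 bp without and at 96 and 97 bp with MYCN knockdown. PCNA, the sliding clamp, had it at 119 and 126 bp in the controls and again at 119 and 126 bp on knockdown. POLE2, the second subunit of polymerase epsilon, had it at 111 and 110 bp in the controls and at 104 and 105 bp on knockdown. At PCNA the position followed the replicate number, whereas the POLE2 and PRIM1 values did not overlap between groups but differed by 7 bp or less. MCM2 likewise had 145 bp in both controls and 137 and 136 bp on knockdown. How many of all promoters had +1 positions that did not overlap between groups was not counted. In the knockdown libraries the +1 nucleosome of MCM2 held 17 and 38 reads, against 34 and 37 in the controls. ORC6 (146, 153, 154 and 153 bp), RFC3 (140, 137, 143 and 134 bp) and CDC45 also stayed within 10 bp over the 4 libraries.

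No +1 position was called different between groups by limma with Benjamini-Hochberg adjustment, over the members or over the 17489 promoters tested (0% called). At an unadjusted p under 0.05 limma passed 911 promoters and 0 of the 35 members. GINS2 had the largest difference, 61.5 bp further downstream on knockdown (SE 62.2, unadjusted p = 0.391, adjusted p = 0.947, limma), from dyads at 21 and 49 bp in the controls and 20 and 173 bp on knockdown. This difference rested on MYCN knockdown replicate 2, and without that library it was -15.0 bp. MCM7 had 137 and 202 bp in the controls and 116 and 130 bp on knockdown, a difference of -46.5 bp (SE 28.2, unadjusted p = 0.192, adjusted p = 0.947, limma). It was -14.0 bp without control replicate 2 and -79.0 bp without control replicate 1. At RFC5, a small subunit of the clamp loader, the dyad was at 129 and 138 bp in the controls and at 160 and 196 bp on knockdown, a difference of 44.5 bp (SE 17.9, unadjusted p = 0.0832, adjusted p = 0.947, limma). In both knockdown libraries MCM7 was lower and RFC5 higher than in both controls. MCM4 and MCM10 were likewise lower and ORC2 and MCM6 higher, beside PRIM1, POLE2 and MCM2 above. The share of all promoters with such a split was not counted, so no shift is read from it. The RFC5 difference was 26.5 bp without MYCN knockdown replicate 2.

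Set against replicate noise, the shift between groups was of the same size. The median absolute difference in +1 position over members was 15 bp for the 2 controls and 13 bp for the 2 knockdown libraries. Across groups it was 11 bp at replicate number 1 and 14 bp at replicate number 2. All promoters gave 19 to 21 bp for each of these 4 pairs. The distance from +1 to the next dyad had a median of 188 and 191 bp in the controls and 190 and 196.5 bp on knockdown in members, and 208 to 211 bp over all promoters. The median distance was thus shorter in the members in each library, by less on MYCN knockdown replicate 2, where the upper quartile was 261 bp in members and 259 bp over all promoters.

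**Figure D3:**
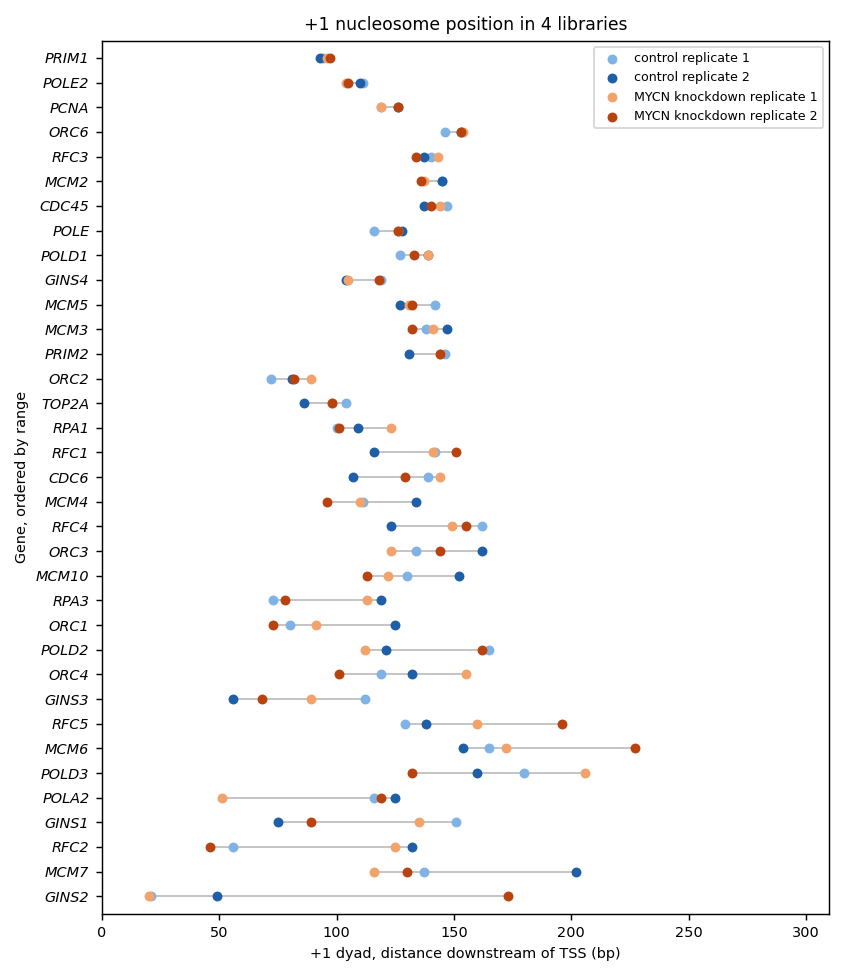
Distance of the +1 dyad from the TSS in bp (points, 1 per library; line, range) for the 35 genes with a +1 nucleosome in all 4 libraries, ordered by range. PRIM1 spans 4 bp and GINS2 153 bp, and control and knockdown points are mixed in most genes.

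Promoter occupancy was the sum of reads over 3 kb, of which 2 kb lay upstream of the TSS. It is given below as CPM, in which each library's promoter total is scaled to a common size after TMM normalization. The raw sums had a median over members of 154 and 267 reads in the controls and 153 and 274 on knockdown, against 162, 263, 159 and 260 over all promoters. Relative to the 500 kb on either side, the members had a mean read density over the 4 libraries of 0.84 (median), against 0.939 for all promoters. ORC6 was lowest at 0.27 and MCM6 highest at 1.055. The promoter sums of ORC6 were 172 and 262 reads in the controls and 183 and 275 on knockdown. The cause of its low ratio was not tested.

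All 39 members passed the filter of 10 reads on average. With edgeR's quasi-likelihood test and Benjamini-Hochberg adjustment, 0 of 20080 promoters were called (0%), and thus 0 members. At an unadjusted p under 0.05 edgeR passed 629 promoters and DESeq2 207, with 0 members in either. With a replicate block and GC correction edgeR passed 1072 promoters, of which 2 were members (ORC5 and RPA1). With thinned depth it passed 907, of which 1 was a member (RPA2). The median log2 change of the members, knockdown minus control, was -0.01, beside 0.00 over all promoters, and 19 members were above 0 and 20 below, from -0.37 to 0.41. The libraries of the groups did not overlap in 13 members, 8 higher and 5 lower on knockdown, which is 33.3% against 30.4% of all promoters.

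The 6 members with the smallest p are given with their values. CDC6, the loader of the helicase, had 51.1 and 51.9 CPM in the controls and 61.4 and 61.8 CPM on knockdown. Both knockdown libraries were above both controls, and the log2 change was 0.26 (SE 0.141, unadjusted p = 0.0715, adjusted p = 0.999, edgeR). RPA1, the large subunit of RPA, had 26.6 and 35.1 in the controls and 38.0 and 40.3 on knockdown, again with both knockdown libraries higher, and a log2 change of 0.33 (SE 0.181, unadjusted p = 0.0776, adjusted p = 0.999, edgeR). Its promoter density relative to the flanks was 0.776 and 0.94 in the controls and 1.153 and 1.128 on knockdown.

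ORC5 was lower on knockdown, with 61.1 and 59.3 CPM in the controls and 51.1 and 51.0 on knockdown, and a log2 change of -0.24 (SE 0.141, unadjusted p = 0.0999, adjusted p = 0.999, edgeR). ORC1, the largest ORC subunit, was also lower in both, with 25.4 and 28.1 in the controls and 19.3 and 21.9 on knockdown, and a log2 change of -0.37 (SE 0.28, unadjusted p = 0.189, adjusted p = 0.999, edgeR). The ORC1 sums were small, 84 and 151 reads in the controls and 62 and 115 on knockdown.

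PCNA had 36.9 and 48.5 CPM in the controls and 47.4 and 55.0 on knockdown, so control replicate 2 was above knockdown replicate 1. Its log2 change was 0.25 (SE 0.153, unadjusted p = 0.109, adjusted p = 0.999, edgeR). Without control replicate 2 the PCNA change was 0.485, without control replicate 1 it was 0.0886 and without MYCN knockdown replicate 2 it was 0.129. GINS3 had 59.8 and 49.6 in the controls and 69.5 and 57.4 on knockdown, with overlapping groups and a log2 change of 0.21 (SE 0.146, unadjusted p = 0.148, adjusted p = 0.999, edgeR). Its change was 0.0717 without control replicate 2, 0.0824 without MYCN knockdown replicate 1, 0.341 without control replicate 1 and 0.358 without MYCN knockdown replicate 2. The change of RPA1 also moved with the controls, from 0.563 without control replicate 2 to 0.161 without control replicate 1.

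ORC4 had the largest log2 change, 0.41, on the smallest sums, 59 and 62 reads in the controls and 57 and 107 on knockdown. Its scaled values were 17.8 and 11.5 CPM in the controls and 17.8 and 20.3 CPM on knockdown. Control replicate 2 was thus low for its depth, and control replicate 1 was level with MYCN knockdown replicate 1. RPA2 had 59 and 124 reads in the controls and 79 and 150 on knockdown, and its scaled values of 17.8 and 23.1 against 24.6 and 28.5 did not overlap. At the other end MCM5, a subunit of the helicase ring, had 63.2 and 60.4 CPM in the controls and 48.9 and 58.6 on knockdown. POLA2, the regulatory subunit of polymerase alpha, had 29.0 and 32.9 in the controls and 24.9 and 28.1 on knockdown.

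The remaining non-overlapping genes were ORC3, ORC6, POLD2, PRIM2 and TOP2A, higher on knockdown, and MCM2, lower. MCM7 had 40.8 and 52.8 CPM in the controls and 40.8 and 53.2 on knockdown, so its level followed the replicate number. PRIM1 had 53.8 and 53.4 in the controls and 54.9 and 53.4 on knockdown. The median absolute log2 ratio over members was 0.181 for the controls and 0.177 for the knockdown pair, and across groups it was 0.216 at replicate number 1 and 0.139 at replicate number 2, so replicates of a group differed about as much as groups did.

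**Figure D4:**
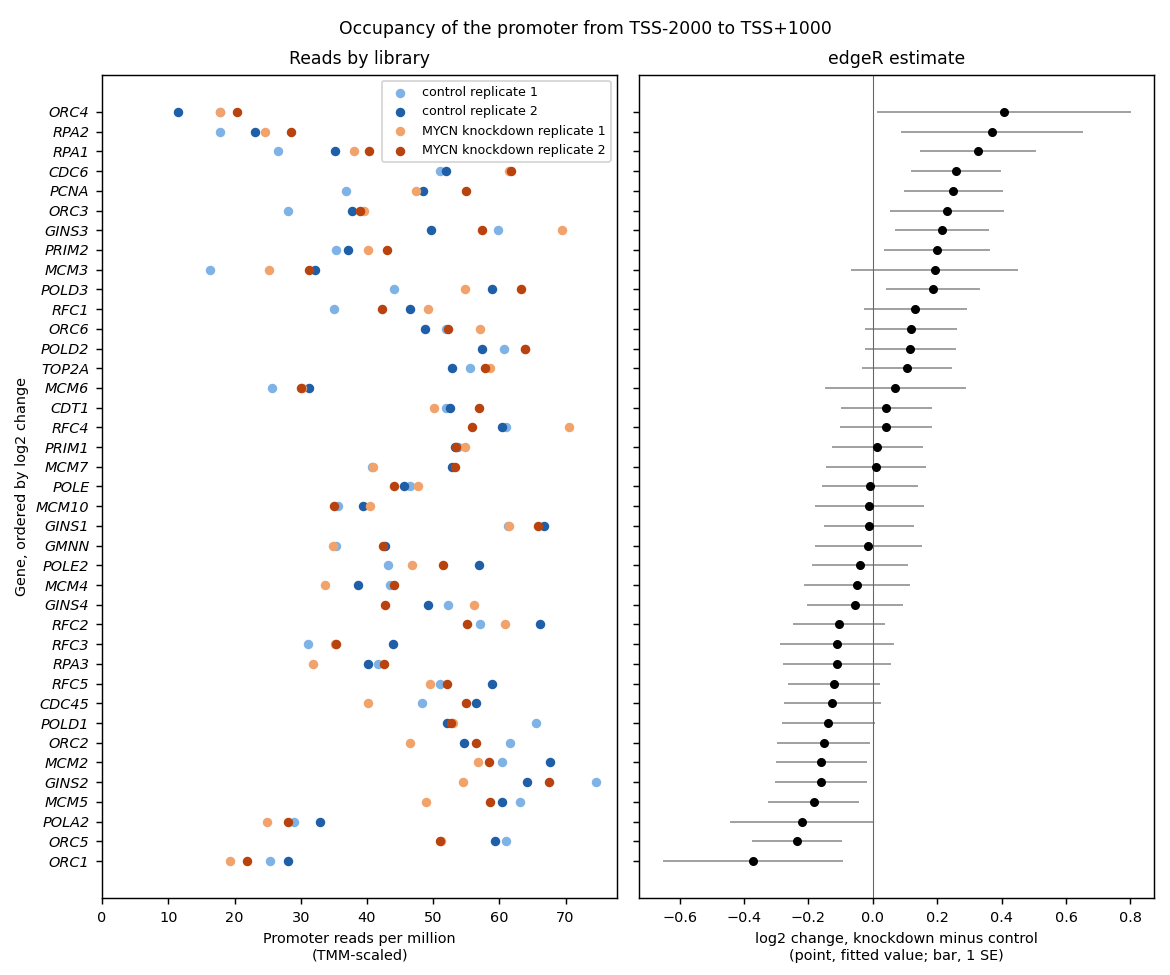
Left, promoter CPM (TMM-scaled) in each library for the 39 genes, and right, the log2 change of knockdown against control from edgeR with bars of 1 SE, ordered by that change. The changes run from -0.37 for ORC1 to 0.41 for ORC4, and 0 of the 39 were called.

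Read-weighted fuzziness over the same span had a median over members of 32.58 and 35.27 bp in the controls and 32.9 and 35.04 bp on knockdown. Over all promoters the medians were 33.7, 35.56, 33.71 and 35.47 bp, so the members were slightly lower in each library. Replicate 2 was thus fuzzier than replicate 1 in both groups. Of 20075 promoters limma with Benjamini-Hochberg adjustment called 1 (0.00498%), which was XAGE1D, a gene outside the set chosen after its value was seen, and it called no member. At an unadjusted p under 0.05 it passed 261 promoters and 0 members. ORC3, an ORC subunit, had 25.9 and 32.9 bp in the controls and 34.4 and 33.0 bp on knockdown, a difference of 4.35 bp (SE 2.19, unadjusted p = 0.053, adjusted p = 1.0, limma). The ORC3 difference was 0.872 bp without control replicate 1, where 93 reads lay in its promoter, and 7.82 bp without control replicate 2. POLA2 differed by 3.26 bp (SE 2.12, unadjusted p = 0.132, adjusted p = 1.0, limma) and ORC1 by -2.90 bp (SE 2.08, unadjusted p = 0.17, adjusted p = 1.0, limma). POLA2 had 28.5 and 32.6 bp in the controls and 32.4 and 35.2 bp on knockdown, which overlapped. The POLA2 difference was 1.2 bp without control replicate 1, 1.89 bp without MYCN knockdown replicate 2 and 5.31 bp without control replicate 2, and 1.28 bp with at least 10 reads per nucleosome. ORC1 had 32.8 and 35.3 bp in the controls and 30.6 and 31.7 bp on knockdown. Groups did not overlap at ORC1 and ORC3, a split not counted over the set or over all promoters. The ORC1 difference was -1.67 bp without control replicate 2 and -4.12 bp without control replicate 1. It was -2.34 bp without MYCN knockdown replicate 1 and -3.45 bp without MYCN knockdown replicate 2.

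A further 30 replication genes outside the set, such as FEN1, LIG1 and CDC7, were measured in the same way. Their windows were empty in 24 and 16 genes in the controls and in 26 and 19 on knockdown, and in all 4 libraries in 12 (40.0%), beside 74.4% of the 39 members and 32.3% of all promoters. FEN1, MTBP and DNA2 were filled in all 4 libraries, and DBF4, the activator of the CDC7 kinase, was filled in both controls and empty in both knockdown libraries. None of the 30 was called in the occupancy test by edgeR. FEN1 and POLD4 are described because their unadjusted edgeR p was under 0.05, as it was for 629 of all 20080 promoters. FEN1, the flap nuclease of Okazaki fragment processing, had 53 and 103 promoter reads in the controls and 76 and 167 on knockdown, a log2 change of 0.66 (unadjusted p = 0.0305, adjusted p = 0.999, edgeR). POLD4, a small subunit of polymerase delta, had 296 and 367 in the controls and 216 and 299 on knockdown, a log2 change of -0.34 (unadjusted p = 0.0239, adjusted p = 0.999, edgeR).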

How the data were processed

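MNase-seq libraries of BE(2)C cells (2 control, 2 MYCN knockdown) were grouped by sample title. The authors trimmed reads with Trim Galore 0.4.4, mapped them to hg19 with Bowtie2 2.2.4 (base calls, CASAVA 1.9; versions from the submitters' processing notes), kept pairs of mapping quality above 10, removed duplicates and called nucleosomes with Genetrack, whose version is not given in the sources used here. The deposited counts are whole read-pair midpoints per nucleosome in each library. The deposited fuzziness is in bp. The methods call occupancy a normalized count, but the values are whole numbers with unequal totals and were used as raw counts. List totals cover called nucleosomes only, and MNase digestion depends on base composition.

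TSS are those of canonical transcripts (GENCODE on GRCh37). Occupancy was tested with edgeR 4.0.16 (TMM, group only, mean of at least 10 reads), +1 position and fuzziness with limma 3.58.1, in R 4.3.3, with Benjamini-Hochberg adjustment over all promoters at 0.05. Fits were tested on simulated data. Alternatives were DESeq2 1.42.0, other scalings and filters, GC correction, other TSS and windows, thinned depth, a replicate block and leaving out each library. The 6 smallest p-values (occupancy), 3 largest differences (+1, fuzziness) and 3 longest and shortest stretches were named, and sequences were cut to bases outside annotated untranslated regions, or to 30 bases. Further members were described by values to account for the set. Members and lists were chosen with earlier results of these data known.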

Additional observations from a re-analysis of the deposited data

How the results depend on the processing

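Over 17 results, 150 of 165 alternative values were counted as the same as the main value, 9 as moved and 6 as reversed. For tested results, the same means that a value neither changed direction nor crossed the threshold. The label does not measure whether a size was stable. PCNA occupancy was 0.0886 without control replicate 1 and 0.485 without control replicate 2, and both were counted as the same. The empty window and the TSS profile had no test, and empty-window counts of 22 and 35 beside 29 were counted as the same. Labels give both groups the same replicate numbers, and the departures from the group mean in libraries of the same number correlated at 0.2899 over 20080 promoters, with only 2 pairs. Whether a number marks a shared culture or day is not given, so the pairing is undetermined. The replicate block left occupancy at 0 calls (1170 at an unadjusted edgeR p under 0.05) and raised the fuzziness count from 1 to 4, none of them members. It changed no other call. The occupancy count was 0 to 1 with a library left out: without MYCN knockdown replicate 2 it was 1, at ANGPT2, which is no member. The fuzziness count was 0 to 13 with a library left out (3 without control replicate 1, 10 without control replicate 2, 0 without MYCN knockdown replicate 1, 13 without MYCN knockdown replicate 2) and 0 with at least 10 reads per nucleosome. The lone library left in a group is there assumed to vary like the other group. With the most upstream TSS the members with an empty window fell from 29 to 18 (46.2%, against 27.2% of all promoters). The ratio of reads in the window to the rest, a mean of 0.232 over the libraries, rose to 0.51. No ratio over all promoters is given here for the most upstream TSS. That TSS also turned GINS3 occupancy to -0.0244. The +1 difference of GINS2 turned to -9.5 bp with the dyad of most reads, to -19.5 bp with the most upstream TSS, and ran from -15.0 to 138 bp with a library left out. RFC5 turned to -33.0 bp with the dyad of most reads, and ORC1 fuzziness to 1.99 bp with at least 10 reads per nucleosome. The cause of these changes was not tested. With few reads per nucleosome, an absent nucleosome can be 1 below the minimum of 6 reads.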

Other observations

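For the 10 members whose canonical window was not empty in all 4 libraries, the windows of all their annotated start sites were examined, a step added after their values were seen. ORC5 had 7 start sites, and the window was empty in all 4 libraries at 1 of them, 34 bp upstream of the canonical TSS. GINS1 had 19, of which 2 were empty in all 4, 66 and 15832 bp downstream. Its start sites 25 to 58 bp downstream were empty in 3 libraries and filled in control replicate 1. No share over the start sites of other genes was counted. RFC1 had 15, of which 1 was empty in all 4, 49349 bp downstream, and its start sites 23 and 27 bp downstream were empty in 3 libraries. RPA3 had 7, and 6 of them lay at least 77635 bp downstream of the canonical TSS. The window at chr7:7680208, 78030 bp downstream, was empty in all 4 libraries. CDT1, MCM2, GINS2, GINS3, PRIM2 and POLE had no start site that was empty in all 4.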
